A study of Homo sapiens with 19 samples.

Results

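A set of 45 genes that act in mitosis was followed through the knockdown of the chromatin remodeller BRG1 (gene SMARCA4) or of the melanocyte transcription factor MITF in 501Mel melanoma cells and in Hermes3A immortalised melanocytes. The genes were listed by name, for their roles in mitotic entry, the spindle checkpoint, the kinetochore, the chromosomal passenger complex, the spindle and cytokinesis, chromosome structure and the transcription of these genes. They were chosen with earlier results of these data known, so the shares of all genes set beside their counts are a description. They are 45 of the 44717 gene identifiers in the count files, 44 matched by their current symbol and CASC5 by its older symbol (now KNL1), and all 45 passed the filter on low counts in every comparison.

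The series holds 19 RNA-seq libraries in 7 groups. In 501Mel, a human melanoma line grown in RPMI medium with serum, there were 3 libraries of cells with shRNA against BRG1 (shBRG1), 3 with the scramble control shSCR1, 2 with shRNA against MITF (shMITF) and 2 with the scramble control shSCR2. In Hermes3A, an immortalised human melanocyte line, there were 3 libraries each of shBRG1, shMITF and 1 shared control, shSCR. This line was grown in the same medium with serum and with added TPA, cholera toxin, stem cell factor and endothelin-1. All cells, controls included, carried a lentiviral shRNA vector and had been selected with puromycin. Each target was knocked down with a single shRNA sequence, each line stands for 1 cell source, and the labels do not say that replicates were separate cultures, so the p-values measure the spread between libraries, which may be technical. In 501Mel the design text of the series names shSCR2 as the control that belongs to shMITF, and neither it nor the labels say how shSCR1 and shSCR2 differ.

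A cell entering mitosis activates CDK1 with cyclin B, condenses its chromosomes and builds a kinetochore on each centromere, to which spindle microtubules attach. The spindle assembly checkpoint holds the anaphase-promoting complex (APC/C) until all kinetochores are attached; its release lets separase open the sister chromatids, and the chromosomal passenger complex and the central spindle then lead to cytokinesis. The mRNAs of most of these proteins are made mainly in G2 and mitosis and are low in cells that are not cycling. Many of their promoters carry a cell cycle genes homology region (CHR) and CCAAT boxes, which are bound by the MuvB complexes (with MYBL2 and FOXM1 in cycling cells, or as DREAM in quiescent cells) and by NF-Y. In a melanoma line the level of such transcripts also reflects how many cells are dividing. In RNA from a whole culture, fewer cells in G2 and mitosis and less mRNA in each cell cannot be told apart.

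The promoters are shown because most of the 45 genes carry a CHR, a CCAAT box or both. Of the 45, 38 had a RefSeq promoter window (GRCh38.p14, 250 bases before to 50 after the start, on the gene's strand), in 47 windows. The CHR, searched as TTTGAA or TTCGAA on both strands, was in 30 of the 47 windows (63.8%), against 16.4% of the 35116 windows of all genes. CCAAT, also searched on both strands, was in 31 (66.0%), against 34.6% of all windows, and both motifs were in 21 (44.7%), against 6.38%. The E2F letters TTTCCCGC, TTTGGCGC or TTCCCGCC were in 2 windows (4.26%, against 4.59% of all). The letters CACGTG or CATGTG, which MITF can bind, were in 7 (14.9%, against 17.6% of all), CACGTG in 6 of them (12.8%, against 7.26%) and CATGTG in 1 (2.13%, against 11.1%). A match is a description of the letters, not evidence that a factor binds there. The 120 bases before the start are given below for 9 genes whose window overlaps no exon or only the end of one. They run from those with a CHR and CCAAT boxes (KIF11, ESPL1, MKI67 and CDC20), through those with CCAAT boxes only in this stretch (SPC25, CENPF, NCAPH and SPC24), to KIF2C, which has neither. Capitals mark the CHR (TTTGAA, or TTCAAA on the other strand) and CCAAT (or ATTGG).
KIF11: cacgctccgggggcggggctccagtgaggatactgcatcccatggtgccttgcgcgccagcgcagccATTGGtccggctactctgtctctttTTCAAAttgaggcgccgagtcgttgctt
ESPL1: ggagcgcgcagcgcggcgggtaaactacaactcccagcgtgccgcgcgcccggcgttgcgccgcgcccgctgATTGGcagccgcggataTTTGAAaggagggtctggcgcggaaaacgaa
MKI67: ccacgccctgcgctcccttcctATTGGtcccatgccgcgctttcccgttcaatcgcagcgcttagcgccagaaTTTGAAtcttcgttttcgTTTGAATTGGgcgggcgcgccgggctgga
CDC20: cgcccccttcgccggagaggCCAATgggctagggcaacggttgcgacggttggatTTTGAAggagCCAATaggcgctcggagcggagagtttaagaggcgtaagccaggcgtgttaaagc
SPC25: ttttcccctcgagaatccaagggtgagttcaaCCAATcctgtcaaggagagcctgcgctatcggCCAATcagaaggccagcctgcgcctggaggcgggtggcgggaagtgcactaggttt
CENPF: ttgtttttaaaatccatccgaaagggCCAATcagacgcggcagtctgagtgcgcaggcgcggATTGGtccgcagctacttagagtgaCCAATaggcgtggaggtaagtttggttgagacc
NCAPH: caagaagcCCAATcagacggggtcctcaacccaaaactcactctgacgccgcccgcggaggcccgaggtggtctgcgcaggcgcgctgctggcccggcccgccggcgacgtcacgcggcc
SPC24: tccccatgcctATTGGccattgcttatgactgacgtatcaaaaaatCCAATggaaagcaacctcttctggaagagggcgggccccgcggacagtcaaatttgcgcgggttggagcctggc
KIF2C: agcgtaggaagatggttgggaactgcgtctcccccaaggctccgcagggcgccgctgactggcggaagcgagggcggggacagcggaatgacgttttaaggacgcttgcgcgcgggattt

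These stretches lie on GRCh38.p14 at chr10:92593010-92593129 (plus strand), chr12:53268179-53268298 (plus), chr10:128126424-128126543 (minus), chr1:43358861-43358980 (plus), chr2:168890431-168890550 (minus), chr1:214603075-214603194 (plus), chr2:96335646-96335765 (plus), chr19:11155783-11155902 (minus) and chr1:44739717-44739836 (plus). In KIF11, the kinesin that pushes the spindle poles apart, the CHR began 28 bases and the CCAAT box 53 bases before the start. In MKI67, the gene of the proliferation antigen Ki-67, there were 2 CHRs, at 47 and 29 bases before the start, and the CCAAT box at 24 bases shares its first letter with the last of the second. By gene, 27 of the 38 had a CHR, 27 had a CCAAT box, and CENPE, KIF2C and MYBL2 had neither in the whole window.

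The total counts per library ran from 29158502 to 78857900, and no member had fewer than 75 counts in any library. SMARCA4 was at 178, 193 and 186 CPM (read counts scaled to the normalised size of the library) in the 501Mel shSCR1 libraries and at 37.4, 40.6 and 35.8 in the shBRG1 libraries, and its log2 fold change was -2.36 ± 0.05 (SE) in 501Mel and -2.38 ± 0.05 in Hermes3A. MITF was at 1048 and 1186 CPM in the shSCR2 libraries against 494 and 546 with shMITF (-1.06 ± 0.14), and at 1014, 1032 and 1119 CPM in Hermes3A shSCR against 456, 719 and 544 with shMITF (-0.85 ± 0.19). Against shSCR1, whose libraries held MITF at 513, 604 and 609 CPM, the 501Mel shMITF libraries differed by -0.12 ± 0.10 (edgeR adjusted p = 0.284), so the knockdown of MITF mRNA is seen in 501Mel only against shSCR2. MITF was also lower with shBRG1, by -1.55 ± 0.06 in 501Mel and -0.43 ± 0.04 in Hermes3A. The melanocyte genes MITF, SOX10, PMEL, TYR, TYRP1, DCT and MLANA were present in every group and summed to 29337 to 31543 CPM in shSCR1, 3113 to 3408 in 501Mel shBRG1, 20753 to 23270 in shSCR2 and 11378 to 11792 in 501Mel shMITF. In Hermes3A they summed to 63370 to 64564 CPM in shSCR, 30257 to 31897 with shBRG1 and 25941 to 34030 with shMITF. Of 6 keratinocyte markers, KRT5, KRT14 and KRT1 did not pass the joint filter, and the other 3 summed to 29.3 to 38.2 CPM in 501Mel and 45.5 to 73.4 in Hermes3A. The 6 fibroblast markers summed to 3.72 to 5.16 CPM in shSCR1, 16.1 to 19.9 in 501Mel shBRG1, 7.43 to 8.5 in shSCR2, 7.30 to 13.2 in 501Mel shMITF, 71.5 to 80.1 in Hermes3A shSCR, 138 to 147 in Hermes3A shBRG1 and 112 to 219 in Hermes3A shMITF, with DCN, PDGFRB and COL3A1 at or under 1.23 CPM on average in all groups. Their part in the results below was not tested.

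The summed level of the 45 genes gives the course of the set through the series. It was 4172 ± 148 CPM (SD, n = 3) in shSCR1 and 1635 ± 14.9 (n = 3) in 501Mel shBRG1, which is 39.2% of the control. It was 7772 ± 233 CPM (n = 2) in shSCR2 and 4388 ± 375 (n = 2) in 501Mel shMITF, or 56.5% of that control. In Hermes3A it was 2626 ± 122 CPM in shSCR, 1493 ± 88.8 in shBRG1 (56.9%) and 1616 ± 188 in shMITF (61.5%), each with n = 3. The libraries of each knockdown lay below all those of its own control. The 2 scramble groups of 501Mel did not sit together, since shSCR2 was at 186% of shSCR1, and the shMITF libraries, at 4123 and 4653 CPM, overlapped with the shSCR1 libraries, at 4003 to 4277 (105% on average).

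**Figure D1:**
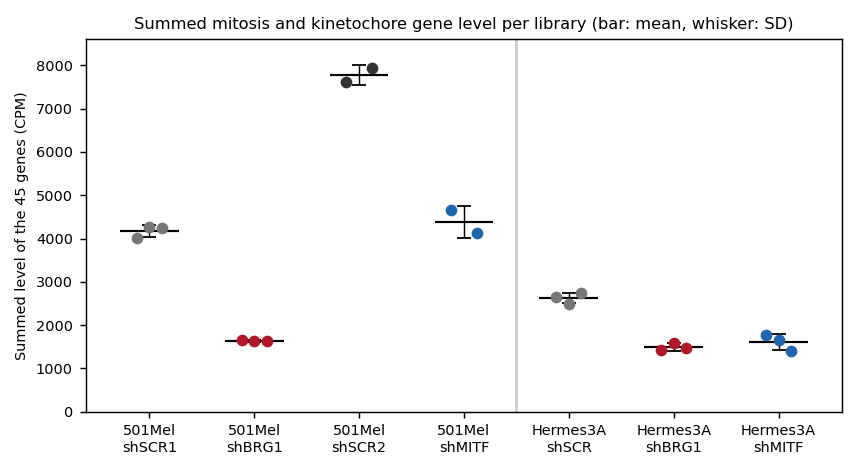
Summed CPM of the 45 mitosis genes in each of the 19 libraries (points), by group, with group means and SD (n = 3, or 2 for shSCR2 and shMITF in 501Mel). Every knockdown lies below its own control, while shSCR2 (7608 and 7937) lies above all other groups and the 501Mel shMITF libraries lie level with shSCR1.

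Between genes, levels can only be compared per length of exon. In shSCR1 the highest members were CDC20, the activator of the APC/C, at 58.0 ± 2.65 CPM per kb (SD, n = 3), the spindle assembly factor TPX2 at 56.5 ± 2.63, CCNB1 at 51.2, securin (PTTG1) at 50.3 and the ubiquitin-conjugating enzyme UBE2C at 44.6. The first pair did not differ beyond their spread. The lowest were CDC25C at 4.36 ± 0.12, SPC24 at 3.91 ± 0.43 and the kinetochore scaffold CASC5 at 3.21 ± 0.29 CPM per kb. The same 5 led in Hermes3A shSCR, in another order, with CCNB1 at 42.1, PTTG1 at 34.7, UBE2C at 32.7, CDC20 at 26.7 and TPX2 at 25.1 CPM per kb. The libraries were normalised with a duplex-specific nuclease, which lowers abundant cDNAs, so the ratios of these levels are compressed to an unknown degree.

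BRG1 knockdown lowered most of the set in melanoma cells. In 501Mel, 42 of the 45 genes were lower with shBRG1 than with shSCR1 at an adjusted p under 0.05, where 39.1% of the 20514 genes tested were, and 1 was higher (41.2% of all genes). With a log2 fold change below -1 as well, 32 were lower and none higher, against 17.4% and 21.7% of all genes tested. The median log2 fold change was -1.32 over the members and 0.05 over all genes tested, and the members ran from -2.996 for the kinetochore protein CENPF to 0.53 for the transcription factor MYBL2. The shBRG1 libraries all lay below the shSCR1 libraries in 42 of the 45, against 39.4% of all genes. The 13 members without a call under both thresholds were AURKB, CDCA8, CDK1, CENPO, FOXM1, KIF20A, KIF2C, MAD2L1, MYBL2, NDC80, SPC24, TTK and UBE2C, and 8 members passed the p threshold with a fold change between -1 and -0.5. Scaling by library size instead of TMM raised the median of all genes by 0.35 in this comparison; the members then numbered 21 under both thresholds, and their median stayed 1.37 below that of all genes with either scaling.

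MITF knockdown in 501Mel lowered 40 of the 45 genes against shSCR2 at an adjusted p under 0.05 (10.5% of the 17701 genes tested) and raised none (10% of all genes). Under both thresholds none was higher (5.59% of all genes) and 11 were lower, against 3.4% of all genes, and these were ANLN, AURKA, CASC5, CDK1, CENPF, CENPU, INCENP, KIF20A, MAD2L1, MKI67 and NCAPH. The median was -0.83, against 0.01 over all genes, and the range -1.37 to -0.13. All 45 had both shMITF libraries below both shSCR2 libraries, as had 30.6% of all genes. These values rest on the control used. Against shSCR1, 11 of the 45 were lower and 19 higher at an adjusted p under 0.05, where 32.3% and 33.1% of all genes were; under both thresholds none was lower (17.6% of all genes) and 1, MYBL2, was higher (12.2%), and the median was 0.07. Without shMITF replicate 2 the count of 11 became 7, under library-size scaling 6, and against the pooled scramble libraries 0.

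In Hermes3A, shBRG1 lowered 44 of the 45 genes at an adjusted p under 0.05 (28.6% of the 17222 genes tested) and raised none (28.2%). The exception was SPC24. The falls were of like size, with a median of -0.81 (0.01 over all genes) and a range of -1.09 to -0.07, so that 37 of the 45 lay between -1 and -0.5 with a passing p and 4, CCNA2, CDC25C, CDCA8 and NUF2, passed both thresholds, against 3.47% of all genes, with none higher (5.78%). That count follows the threshold: it was 11 without shBRG1 replicate 2, 7 without shSCR replicate 2 and 0 under library-size scaling, which raised the median of all genes by 0.10. The shBRG1 libraries lay below all shSCR libraries in 44 of 45 members (30.7% of all genes).

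In Hermes3A, shMITF lowered 26 of the 45 genes at an adjusted p under 0.05 (9.15% of the 16508 genes tested), 6 of them under both thresholds (4.04%), and raised none (7.85% and 3.35%). The 6 were ANLN, AURKB, BUB1, CASC5, CENPF and MKI67. The median was -0.63 (0.05 over all genes) and the range -1.44 to 0.14, and the shMITF libraries lay below all shSCR libraries in 36 of 45 members (20.6% of all genes) and above them in none (20.3%). The shMITF replicates differed: replicate 1 lay at or above the lowest control library in 7 members (CCNB1, CDC20, ECT2, KIF23, PTTG1, SPC24 and UBE2C), replicate 2 in MYBL2 and SPC24, and replicate 3 in none. The median log2 ratio to the control mean was -0.55, -0.67 and -0.94 for replicates 1, 2 and 3. Replicate 1 was nevertheless the lowest of the 3 in 12 members, AURKB and MKI67 among them, and the highest in 24. Without replicate 1, 40 members were lower at an adjusted p under 0.05, and without 1 of the shSCR replicates between 11 and 15 were.

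**Figure D2:**
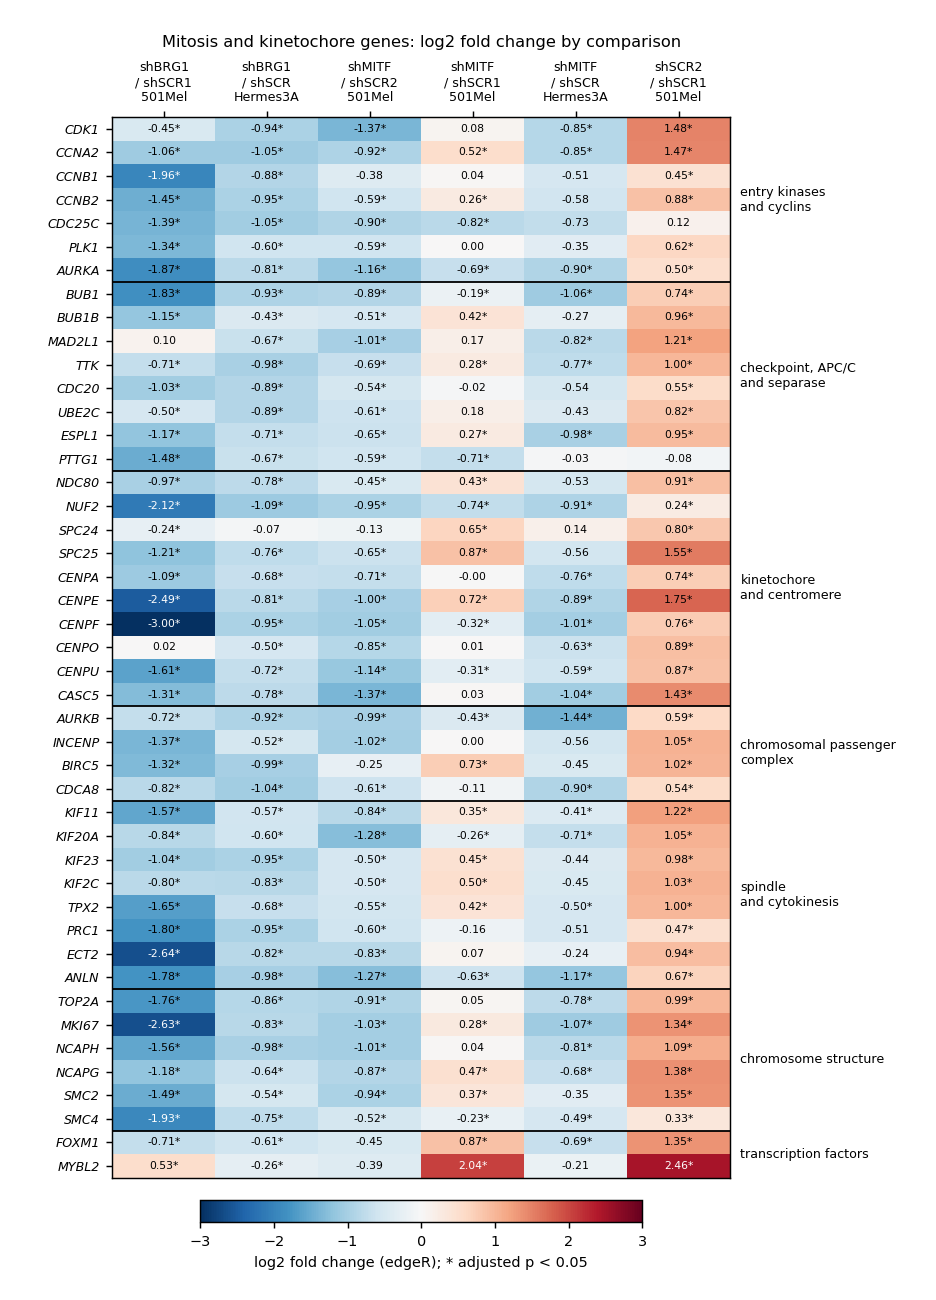
Log2 fold change of each of the 45 genes (rows, grouped by role) in 6 comparisons (columns), with the value in each cell and an asterisk at an edgeR adjusted p under 0.05. The 501Mel shBRG1 column holds the lowest values (CENPF -2.996, ECT2 -2.64, MKI67 -2.63); the shMITF column changes sign for many genes between the shSCR2 and the shSCR1 control, and MYBL2 is the highest value against shSCR1.

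The counts by role that follow stand against the shares of all genes tested that were lower at an adjusted p under 0.05, 39.1% (17.4% under both thresholds) with shBRG1 in 501Mel, 10.5% (3.4%) with shMITF against shSCR2, 28.6% (3.47%) with shBRG1 in Hermes3A and 9.15% (4.04%) with shMITF in Hermes3A.

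The kinases and cyclins of mitotic entry had negative fold changes in all 4 knockdowns. At an adjusted p under 0.05, 7 of the 7 were lower with shBRG1 in 501Mel (6 under both thresholds), 6 with shMITF in 501Mel against shSCR2, 7 with shBRG1 in Hermes3A and 3 with shMITF in Hermes3A. CCNB1, the cyclin that activates CDK1, was at 130, 135 and 127.9 CPM in shSCR1 and 35.0, 36.3 and 34.8 with shBRG1 (-1.96 ± 0.05, adjusted p = 1.39e-20). In shSCR2 it was at 159 and 196 CPM and with shMITF at 133 and 132, level with shSCR1, a difference of -0.38 ± 0.13 from shSCR2 that did not pass (adjusted p = 0.0704). The Hermes3A libraries held it at 106, 106 and 111 CPM in shSCR, 53.8, 64.7 and 55.1 with shBRG1 and 111, 62.5 and 50.3 with shMITF, where replicate 1 overlapped the control and the others were well below it (-0.51 ± 0.26, adjusted p = 0.214).

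CDK1, the kinase itself, showed another order. It was at 83.5, 92.8 and 95.3 CPM in shSCR1 and 72.3, 66.2 and 69.4 with shBRG1, groups that did not overlap but lay close (-0.45 ± 0.05, adjusted p = 5.89e-08). With shMITF it was at 99.8 and 89.6 CPM against 256 and 246 in shSCR2 (-1.37 ± 0.12, adjusted p = 0.000289), which is again level with shSCR1 (0.08 against shSCR1). In Hermes3A it fell from 80.4, 77.2 and 87.3 CPM to 39.0, 47.2 and 40.2 with shBRG1 (-0.94 ± 0.06) and 48.9, 50.5 and 34.3 with shMITF (-0.85 ± 0.16). CCNA2, the cyclin of S phase and G2, fell by like amounts in all 4, from 66.8, 73.0 and 73.9 CPM to 37.0, 33.6 and 36.7 with shBRG1 in 501Mel and from 47.6, 42.0 and 47.2 to 19.9, 23.5 and 21.8 with shBRG1 in Hermes3A. In shSCR2 it was at 178 and 212 CPM, against 111.9 and 89.8 with shMITF, and in Hermes3A shMITF at 28.01, 25.1 and 21.2. Its log2 fold changes were -1.06 and -1.05 with shBRG1 in 501Mel and Hermes3A, -0.92 with shMITF against shSCR2 and -0.85 with shMITF in Hermes3A. Against shSCR1, however, CCNA2 was higher with shMITF in 501Mel (0.52 ± 0.09, edgeR adjusted p = 0.00104).

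CDC25C, a phosphatase that activates CDK1, was low throughout, at 14.2, 15.001 and 14.5 CPM in shSCR1, 5.83, 6.06 and 5.51 with shBRG1, 14.7 and 16.5 in shSCR2 and 8.01 and 8.25 with shMITF. It is the member with the lowest value against shSCR1 too (-0.82), and its shMITF libraries lay below both scramble groups. In Hermes3A it went from 5.96, 6.82 and 7.19 CPM to 3.03, 3.43 and 3.03 with shBRG1 (-1.05 ± 0.12, adjusted p = 2.01e-08) and to 5.57, 3.46 and 2.75 with shMITF, a wide spread without a call (adjusted p = 0.109). PLK1, the polo-like kinase, was at 158, 166 and 153 CPM in shSCR1, 64.0, 69.8 and 64.1 with shBRG1 (-1.34 ± 0.05), 209 and 278 in shSCR2 and 162 and 153 with shMITF (-0.59 ± 0.14, adjusted p = 0.0212). Its shMITF level matches that of shSCR1 (0.00 against shSCR1). In Hermes3A it was at 56.8, 52.9 and 54.7 CPM in shSCR, 35.1, 38.4 and 33.6 with shBRG1 (-0.60 ± 0.06) and 50.8, 44.1 and 31.7 with shMITF (-0.35 ± 0.17, adjusted p = 0.203). AURKA, the kinase of the spindle poles, was lower in all 4 knockdowns and passed both thresholds in 501Mel, at -1.87 with shBRG1 and -1.16 with shMITF, and it also lay below shSCR1 with shMITF (-0.69).

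Of the 8 checkpoint, APC/C and separase genes, 7 were lower with shBRG1 at an adjusted p under 0.05 (5 under both thresholds), 8 with shMITF against shSCR2 (1), 8 with shBRG1 in Hermes3A (none under both) and 4 with shMITF in Hermes3A (1). BUB1, a checkpoint kinase at the kinetochore, was at 111 CPM in each shSCR1 library and at 33.3, 32.3 and 32.6 with shBRG1 (-1.83 ± 0.05, adjusted p = 2.81e-20). It was at 189 and 178 CPM in shSCR2 and 98.5 and 94.2 with shMITF (-0.89 ± 0.12), the latter a little below shSCR1 (-0.19). In Hermes3A it fell from 74.9, 72.9 and 80.5 CPM to 37.2, 42.2 and 39.7 with shBRG1 (-0.93 ± 0.05) and 44.6, 33.7 and 28.9 with shMITF (-1.06 ± 0.17), with all knockdown libraries below the control.

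MAD2L1, the checkpoint protein that binds CDC20, stood out among the 8 by not falling with shBRG1 in melanoma cells. It was at 52.7, 57.4 and 57.9 CPM in shSCR1 and 64.6, 62.2 and 61.5 with shBRG1 (0.10 ± 0.05, adjusted p = 0.0724). Against the pooled scramble libraries its value was -0.47, which did not pass (edgeR adjusted p = 0.298). It was at 124 and 132 CPM in shSCR2 and 64.7 and 59.4 with shMITF (-1.01 ± 0.12, adjusted p = 0.00105), and it fell in Hermes3A from 29.8, 28.3 and 34.6 CPM to 17.6, 20.1 and 19.9 with shBRG1 (-0.67 ± 0.07) and 19.2, 17.3 and 15.2 with shMITF (-0.82 ± 0.15). BUB1B, the BUBR1 checkpoint protein, was at 62.1, 61.8 and 59.5 CPM in shSCR1 against 28.8, 28.7 and 28.98 with shBRG1 (-1.15 ± 0.05) and at 31.1, 31.0 and 33.5 in Hermes3A shSCR against 21.0, 25.9 and 23.4 with shBRG1 (-0.43 ± 0.07). It was at 125 and 111.5 CPM in shSCR2 and 88.2 and 73.6 with shMITF (-0.51 ± 0.13, adjusted p = 0.0267), and at 27.2, 27.96 and 22.9 with shMITF in Hermes3A, which did not pass (-0.27 ± 0.13, adjusted p = 0.207). Its Hermes3A fall with shBRG1 was the smallest of the checkpoint group.

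CDC20 was at 121, 121 and 112 CPM in shSCR1, 58.4, 64.8 and 58.0 with shBRG1 (-1.03 ± 0.05), 158 and 184 in shSCR2 and 113 and 116 with shMITF (-0.54 ± 0.13, adjusted p = 0.017). The Hermes3A libraries held it at 54.3, 51.7 and 56.9 CPM in shSCR, 27.6, 30.4 and 29.4 with shBRG1 (-0.89 ± 0.06) and 56.0, 32.7 and 21.6 with shMITF (-0.54 ± 0.29, adjusted p = 0.243). The shMITF libraries of Hermes3A thus spanned from the control level to below the shBRG1 level for this gene. PTTG1, the inhibitor of separase, was the only member below zero between the scramble groups, with 104, 101 and 98.7 CPM in shSCR1 and 97.6 and 91.9 in shSCR2 (-0.08 ± 0.07, adjusted p = 0.282). It was at 37.8, 39.5 and 36.5 CPM with shBRG1 and 66.6 and 55.8 with shMITF, so that it was lower with shMITF against either scramble group (-0.59 against shSCR2, -0.71 against shSCR1). In Hermes3A it fell with shBRG1, from 71.7, 66.3 and 71.7 CPM to 40.8, 47.4 and 42.4, while the shMITF libraries, at 95.4, 54.8 and 51.2, lay on both sides of the control (-0.03 ± 0.22). TTK was lower in all 4 comparisons (-0.69 to -0.98), separase (ESPL1) likewise (-0.65 to -1.17), and UBE2C in all but Hermes3A shMITF. Against shSCR1, TTK and ESPL1 were higher with shMITF in 501Mel (0.28 and 0.27).

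The 10 kinetochore and centromere genes held the widest range. At an adjusted p under 0.05, 9 were lower with shBRG1 in 501Mel (7 under both thresholds), 9 with shMITF against shSCR2 (3), 9 with shBRG1 in Hermes3A (1) and 7 with shMITF in Hermes3A (2). CENPF, a large protein of the outer kinetochore (chr1:214603195-214664588 on GRCh38), was at 281, 297 and 290 CPM in shSCR1 and 38.5, 36.5 and 38.9 with shBRG1 (-2.996 ± 0.05, adjusted p = 2.21e-23). It was at 506 and 466 CPM in shSCR2 and 243 and 214 with shMITF (-1.05 ± 0.12), and in Hermes3A at 221, 198 and 231 in shSCR, 107, 110 and 116 with shBRG1 (-0.95 ± 0.05) and 96.2, 108 and 111 with shMITF (-1.01 ± 0.12). The fall with shBRG1 in 501Mel was the largest of the set, and the other 3 were close to one another. CENPE, the kinesin that moves chromosomes to the spindle equator, was next in this group at -2.49 in 501Mel shBRG1, and it was the member with the second largest difference between the scramble groups (1.75 ± 0.09).

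NUF2, a subunit of the NDC80 complex that binds microtubules, was at 54.7, 54.1 and 54.9 CPM in shSCR1, 12.9, 13.4 and 12.9 with shBRG1 (-2.12 ± 0.05, adjusted p = 2.93e-20), 65.4 and 62.7 in shSCR2 and 31.5 and 32.9 with shMITF (-0.95 ± 0.13). It was among the members lower with shMITF against both scramble groups (-0.74 against shSCR1), and in Hermes3A it had the largest shBRG1 fall of the set, from 24.4, 23.0 and 25.9 CPM to 10.4, 12.4 and 11.3 (-1.09 ± 0.08). With shMITF in Hermes3A it was at 13.99, 12.2 and 12.006 CPM (-0.91 ± 0.14, adjusted p = 0.00451). The 4 subunits of this complex did not move together. NDC80 was at -0.97 and SPC25 at -1.21 with shBRG1 in 501Mel, while SPC24 was at 9.73, 11.6 and 12.001 CPM in shSCR1 and 9.93, 9.55 and 10.0 with shBRG1 (-0.24 ± 0.08, adjusted p = 0.0117). SPC24 passed in none of the other 3 knockdowns, with 19.98 and 18.4 CPM in shSCR2 and 17.6 and 16.7 with shMITF, and in Hermes3A 7.81, 6.41 and 7.01 in shSCR, 6.89, 6.98 and 6.25 with shBRG1 and 7.93, 9.87 and 5.14 with shMITF. Its 95% interval against shSCR2 still reached -0.50, which holds a fall such as that of NDC80 (-0.45 ± 0.14).

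CENPA, the centromeric histone, was at 21.6, 25.6 and 26.3 CPM in shSCR1, 11.8, 12.05 and 12.2 with shBRG1 (-1.09 ± 0.07), 35.7 and 45.2 in shSCR2 and 24.8 and 23.5 with shMITF (-0.71 ± 0.16, adjusted p = 0.0141). In Hermes3A it fell from 13.3, 13.6 and 13.9 CPM to 7.43, 9.71 and 7.91 with shBRG1 (-0.68 ± 0.09) and 9.61, 8.47 and 5.47 with shMITF (-0.76 ± 0.22, adjusted p = 0.0468). CENPO, a subunit of the inner kinetochore (chr2:24793136-24822376), did not fall with shBRG1 in 501Mel, at 28.3, 28.9 and 30.3 CPM in shSCR1 and 31.7, 30.5 and 30.6 with shBRG1 (0.02 ± 0.05, adjusted p = 0.716). Its sign changed without shSCR1 replicate 1 or 2 and against the pooled scramble libraries (-0.36, edgeR adjusted p = 0.285). It was at 52.3 and 55.0 CPM in shSCR2 and 32.1 and 25.9 with shMITF (-0.85 ± 0.15), and in Hermes3A at 19.0, 18.9 and 20.8 in shSCR, 13.1, 13.6 and 14.6 with shBRG1 (-0.50 ± 0.07) and 11.9, 14.6 and 10.5 with shMITF (-0.63 ± 0.17). By annotation, 31.4% of the exon length of CENPO lies on exons of ADCY3 and PTRHD1 on the opposite strand, and strand is not stated for these counts, so reads of these genes cannot be told apart there. CENPU, of the same inner complex, was lower in all 4 (-1.61 with shBRG1 in 501Mel).

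CASC5, the scaffold that recruits BUB1, shared the largest fall with shMITF in 501Mel. It was at 84.3 and 91.01 CPM in shSCR2 and 36.7 and 29.4 with shMITF (-1.37 ± 0.14, adjusted p = 0.000627), but at 30.2, 32.5 and 36.0 in shSCR1, the same level as with shMITF (0.03 against shSCR1). With shBRG1 it was at 13.9, 13.2 and 14.5 CPM (-1.31 ± 0.07). In Hermes3A it fell from 24.8, 22.4 and 26.6 CPM to 13.8, 15.5 and 13.4 with shBRG1 (-0.78 ± 0.08) and 11.0, 13.1 and 11.2 with shMITF (-1.04 ± 0.15).

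All 4 genes of the chromosomal passenger complex, which corrects wrong attachments and directs cytokinesis, were lower with shBRG1 in both lines at an adjusted p under 0.05, 3 with shMITF against shSCR2 and 2 with shMITF in Hermes3A. AURKB, its kinase, was at 59.4, 65.7 and 64.4 CPM in shSCR1, 41.3, 42.9 and 36.4 with shBRG1 (-0.72 ± 0.06, adjusted p = 1.03e-10), 91.8 and 96.9 in shSCR2 and 51.1 and 41.7 with shMITF (-0.99 ± 0.13). In Hermes3A it was at 32.1, 31.5 and 31.3 CPM in shSCR, 15.7, 17.8 and 16.03 with shBRG1 (-0.92 ± 0.07) and 8.62, 16.5 and 9.03 with shMITF (-1.44 ± 0.25, adjusted p = 0.00733), the lowest value of the set in that comparison, with the shMITF libraries far apart. BIRC5 (survivin) had a smaller value with shMITF than with shBRG1 in both lines. It fell with shBRG1 in 501Mel, from 76.1, 91.5 and 90.0 CPM to 36.5, 37.0 and 34.5 (-1.32 ± 0.06), but was at 143 and 138 with shMITF against 157 and 188 in shSCR2 (-0.25 ± 0.13, adjusted p = 0.192), above all shSCR1 libraries (0.73 against shSCR1). The Hermes3A libraries held it at 57.1, 54.4 and 53.7 CPM in shSCR, 25.3, 30.3 and 26.9 with shBRG1 (-0.99 ± 0.06) and 53.6, 34.5 and 30.5 with shMITF (-0.45 ± 0.20, adjusted p = 0.162). INCENP, the scaffold, and CDCA8 (borealin) were at -1.37 and -0.82 with shBRG1 in 501Mel and at -0.52 and -1.04 in Hermes3A.

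Of the 8 spindle and cytokinesis genes, all were lower at an adjusted p under 0.05 with shBRG1 in both lines and with shMITF against shSCR2, and 4 with shMITF in Hermes3A. ECT2, the exchange factor that activates RhoA for the cleavage furrow, was at 98.4, 99.0 and 107 CPM in shSCR1 and 15.98, 16.5 and 18.6 with shBRG1 (-2.64 ± 0.06, adjusted p = 3.25e-21). It was at 182 and 202 CPM in shSCR2 and 109 and 101 with shMITF (-0.83 ± 0.12), and in Hermes3A at 60.5, 56.4 and 66.3 in shSCR, 30.1, 37.3 and 35.3 with shBRG1 (-0.82 ± 0.07) and 60.9, 45.9 and 45.9 with shMITF, the first of which lay within the control (-0.24 ± 0.15, adjusted p = 0.304). Its partners in the central spindle, PRC1 and KIF23, were at -1.80 and -1.04 with shBRG1 in 501Mel.

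ANLN (anillin), which binds actin in the furrow, fell in all 4 comparisons, from 200, 222 and 219 CPM to 65.2, 61.7 and 67.8 with shBRG1 in 501Mel (-1.78 ± 0.05) and from 308 and 368 to 134 and 138 with shMITF (-1.27 ± 0.13, adjusted p = 0.000611). It was also below shSCR1 with shMITF (-0.63). In Hermes3A it was at 130, 124 and 139 CPM in shSCR, 63.3, 70.2 and 63.6 with shBRG1 (-0.98 ± 0.05) and 64.9, 58.0 and 48.8 with shMITF (-1.17 ± 0.14, adjusted p = 0.00161). KIF20A, a kinesin of the central spindle, was at 111 and 127.9 CPM in shSCR2 and 45.1 and 50.6 with shMITF (-1.28 ± 0.14, adjusted p = 0.00071), and at 55.8, 61.0 and 58.1 in shSCR1 and 35.3, 33.3 and 33.7 with shBRG1 (-0.84 ± 0.05). In Hermes3A its libraries were at 47.8, 46.4 and 48.5 CPM in shSCR, 28.98, 33.5 and 30.8 with shBRG1 and 34.9, 26.8 and 24.0 with shMITF, and both differences passed (-0.60 ± 0.06 and -0.71 ± 0.16). TPX2 and KIF11 were lower in all 4, at -1.65 and -1.57 with shBRG1 in 501Mel. Against shSCR1 both were higher with shMITF in 501Mel (0.42 and 0.35).

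Of the 6 chromosome structure genes, all passed both thresholds with shBRG1 in 501Mel, with a median of -1.66. With shMITF against shSCR2 and with shBRG1 in Hermes3A 6 of 6 passed at an adjusted p under 0.05, and with shMITF in Hermes3A 5 did. MKI67 was at 166, 187 and 185 CPM in shSCR1 and 32.7, 28.9 and 29.6 with shBRG1 (-2.63 ± 0.06, adjusted p = 2.25e-21). It was at 458 and 444 CPM in shSCR2 and 245 and 187 with shMITF (-1.03 ± 0.14), which lay level with or above shSCR1 (0.28 against shSCR1). The Hermes3A libraries held it at 183, 168 and 188 CPM in shSCR, 95.9, 106 and 99.6 with shBRG1 (-0.83 ± 0.05) and 61.5, 105 and 86.6 with shMITF (-1.07 ± 0.19), with all knockdown libraries below the control. TOP2A, the topoisomerase that untangles sister chromatids, was at 238, 261 and 268 CPM in shSCR1, 83.2, 73.3 and 81.1 with shBRG1 (-1.76 ± 0.06), 533 and 474 in shSCR2 and 281 and 242 with shMITF (-0.91 ± 0.13). In Hermes3A it fell from 125, 118 and 144 CPM to 65.8, 74.6 and 70.8 with shBRG1 (-0.86 ± 0.06) and 69.2, 78.9 and 73.7 with shMITF (-0.78 ± 0.12, adjusted p = 0.00544), with the 3 shMITF libraries close together. The condensin subunits NCAPH, NCAPG, SMC2 and SMC4 were at -1.18 to -1.93 with shBRG1 in 501Mel and at -0.54 to -0.98 in Hermes3A.

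FOXM1 and MYBL2 are transcription factors known to activate genes of this set, and their fold changes lay above the median of the members in each knockdown, except for FOXM1 with shMITF in Hermes3A. FOXM1 was at 52.6, 57.7 and 51.6 CPM in shSCR1, 32.5, 35.7 and 35.4 with shBRG1 (-0.71 ± 0.06, adjusted p = 5.07e-11), 126 and 147 in shSCR2 and 110 and 85.9 with shMITF (-0.45 ± 0.14, adjusted p = 0.0544). In Hermes3A it was at 85.7, 86.2 and 80.9 CPM in shSCR, 53.8, 56.8 and 53.9 with shBRG1 (-0.61 ± 0.05) and 52.4, 57.7 and 43.9 with shMITF (-0.69 ± 0.13). MYBL2 (B-Myb, chr20:43667019-43716496) was the only member higher with shBRG1 in 501Mel, at 50.4, 50.7 and 52.0 CPM against 28.8, 35.7 and 37.4 in shSCR1 (0.53 ± 0.07, adjusted p = 5.2e-07). Its direction turned against the pooled scramble libraries, without passing (-0.93, edgeR adjusted p = 0.301). It also differed most between the scramble groups, at 193 and 178 CPM in shSCR2 (2.46 ± 0.11), and was at 156 and 120 with shMITF (-0.39 ± 0.14 against shSCR2, adjusted p = 0.0827). The Hermes3A libraries held it at 21.6, 20.5 and 19.5 CPM in shSCR, 15.4, 19.2 and 16.2 with shBRG1 (-0.26 ± 0.08, adjusted p = 0.00546) and 14.05, 23.9 and 14.5 with shMITF (-0.21 ± 0.22, adjusted p = 0.558).

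**Figure D3:**
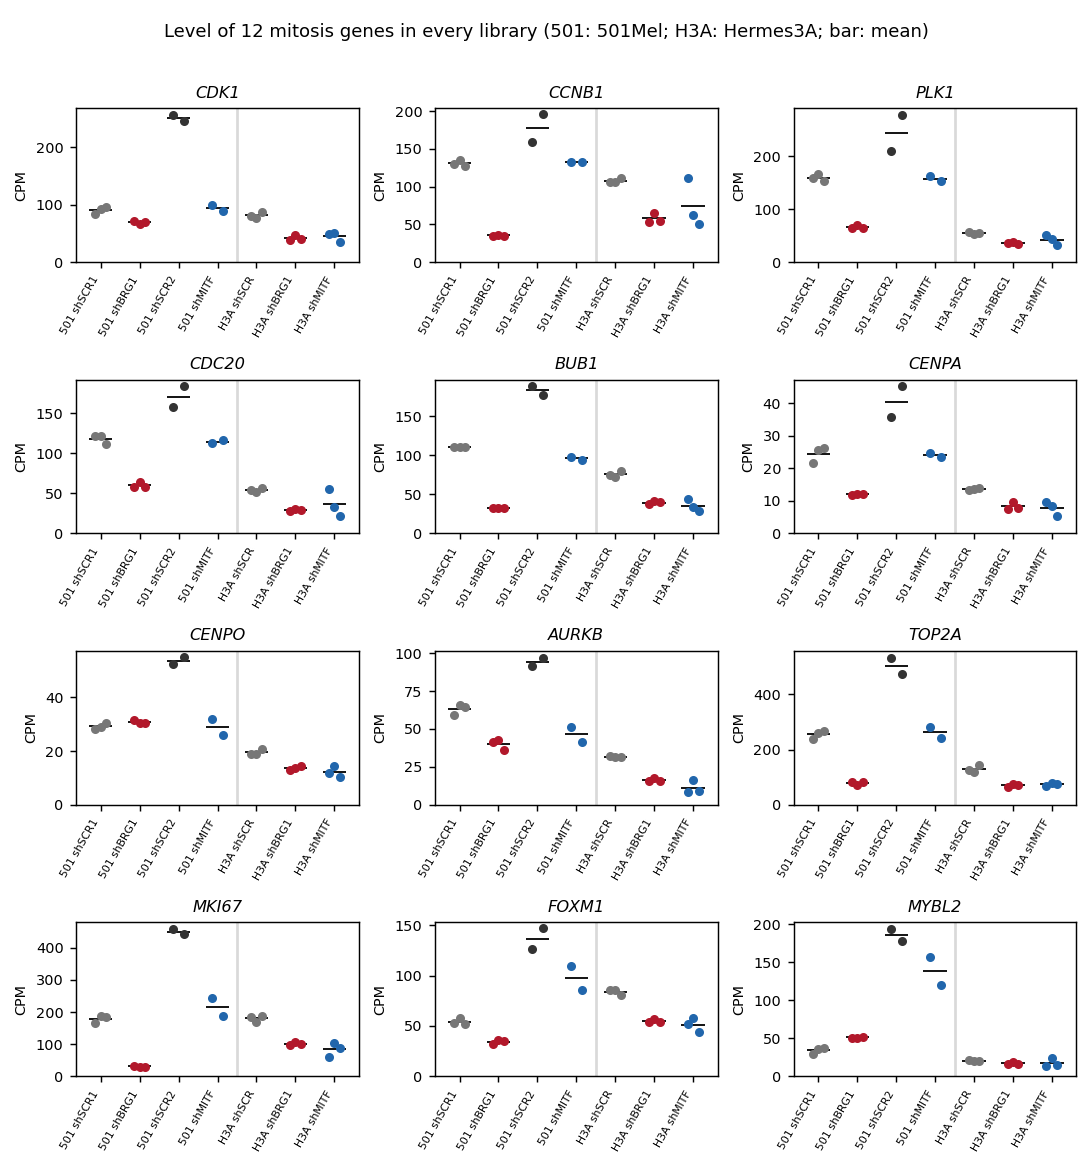
CPM of 12 of the genes in each library (points; linear axes that start at 0 and differ between panels), by group, with the group mean as a bar. CENPO and MYBL2 do not fall from shSCR1 to shBRG1 in 501Mel, while CCNB1, BUB1, TOP2A and MKI67 do, and shSCR2 lies above shSCR1 in each of the 12 panels.

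Both melanoma knockdowns were compared with different scramble groups, and 38 genes were lower at an adjusted p under 0.05 in both, which is 38 of the 42 with shBRG1 and 38 of the 40 with shMITF. Under both thresholds the shared genes were 8 of 32 and 8 of 11: ANLN, AURKA, CASC5, CENPF, CENPU, INCENP, MKI67 and NCAPH. Singly, 39.1% and 10.5% of all genes tested were lower at that p with shBRG1 and shMITF, and 17.4% and 3.4% under both thresholds. The share of all genes lower in both knockdowns was not computed, so the overlap is a description only. CDK1, KIF20A and MAD2L1 passed both thresholds with shMITF but not with shBRG1. Over the members the fold changes of the 2 knockdowns in 501Mel had a Spearman correlation of 0.27, against 0.31 over all genes, those of shBRG1 in the 2 lines 0.25 (0.39 over all genes) and those of shMITF in the 2 lines 0.68 (0.41 over all genes). These are correlations across genes, which share libraries and depth, and are given as a description.

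The effect of shBRG1 was tested between the lines by an interaction term. It was more negative in 501Mel in 31 of the 45 genes (33.1% of the 21697 genes tested) and more positive in 6 (24.8%), with a median difference of -0.56 over the members and -0.03 over all genes. CENPF differed most, by -2.07 ± 0.07 on the log2 scale, then ECT2 by -1.85 ± 0.10, MKI67 by -1.83 ± 0.08 and CENPE by -1.71 ± 0.12. CDK1 (0.46 ± 0.09), MAD2L1 (0.75 ± 0.09), UBE2C (0.35 ± 0.09), CENPO (0.49 ± 0.09), CDCA8 (0.19 ± 0.08) and MYBL2 (0.75 ± 0.11) differed the other way. The remaining 8, CCNA2, TTK, NDC80, SPC24, AURKB, KIF23, KIF2C and FOXM1, had no call. CCNA2 differed by -0.03 ± 0.09 and KIF2C by -0.01 ± 0.08. SMARCA4 itself fell to a like extent in both lines (difference -0.01 ± 0.07), while MITF fell more in 501Mel (-1.15 ± 0.08). In level, all 501Mel shBRG1 libraries lay below all Hermes3A shBRG1 libraries in 12 members (38.1% of the 22817 genes scaled over all libraries) and above them in 23 (46.3%).

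**Figure D4:**
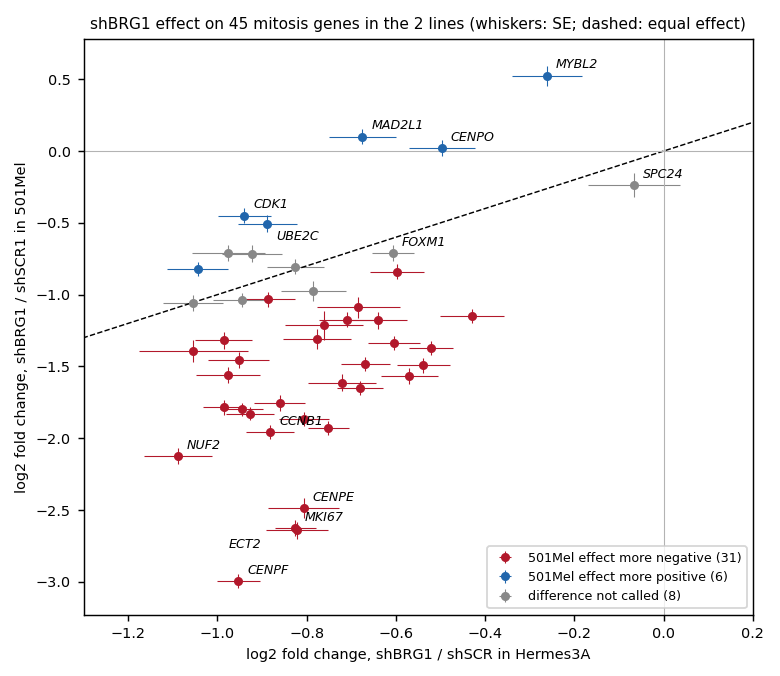
Log2 fold change with shBRG1 in 501Mel (vertical) against that in Hermes3A (horizontal) for the 45 genes, with SE as whiskers and the line of equal effect dashed; colours give the call of the interaction test. Most genes lie below the line; CDK1, MAD2L1, UBE2C, CENPO, CDCA8 and MYBL2 lie above it with a call.

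The same test for shMITF called none of the 45 genes in either direction (0.83% and 2.16% of the 19284 genes tested), and the median difference was -0.11. The errors were wide: for CCNB1 the difference was 0.11 ± 0.36 and for CDC20 -0.01 ± 0.40. The value also rests on the scramble group, and with shSCR1 in the place of shSCR2, 30 members were called more positive in 501Mel (13.8% of the 20280 genes tested) and none more negative (12.9%), and the median was 0.79. In 501Mel the effects of shBRG1 and shMITF, each against its own scramble group, differed in most genes: that of shBRG1 was more negative in 30 (26.8% of the 22255 genes tested) and more positive in 5 (21.2%), CDK1, MAD2L1, CENPO, KIF20A and MYBL2. With shSCR1 as the control of both, which compares the 2 knockdowns directly, shBRG1 was lower in 43 genes (36.1% of the 21474 genes tested) and higher in none (38.8%). The control cancels in that comparison. A difference between the knockdowns therefore cannot be told apart there from whatever set their scramble groups apart.

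In Hermes3A, where both knockdowns share the shSCR libraries, shBRG1 and shMITF were compared directly. The shMITF libraries list fewer genes (34033) than those of shBRG1 and shSCR (42224), for a reason that is not given. All 45 members are listed in every library. None of the 45 genes passed both thresholds (2.08% of the 16927 genes tested were lower and 3.73% higher), and 1, ECT2, was lower with shBRG1 at an adjusted p under 0.05 (-0.58 ± 0.16, adjusted p = 0.0447), where 6.9% of all genes were, and none was higher (7.36%). The libraries of the 2 knockdowns overlapped in 39 members, those of shBRG1 were all below in 5 (20.3% of all genes) and all above in 1 (20.2%), and the median difference was -0.16. With the spread of the shMITF libraries, differences of some size could not be seen: AURKB was at 0.52 ± 0.26 and PTTG1 at -0.64 ± 0.24 without a call.

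The scramble groups of 501Mel were compared because every melanoma result depends on them. At an adjusted p under 0.05, 43 of the 45 genes were higher in shSCR2 than in shSCR1 (35.3% of the 19056 genes tested) and none lower (34.5%), 19 of them by a log2 fold change above 1 (12.3%). The median was 0.95 over the members and -0.03 over all genes. In 44 genes both shSCR2 libraries lay above all shSCR1 libraries (39.6% of all genes), and in 43 they lay above every other 501Mel library (13.4% of the 22817 genes scaled over all libraries). The largest differences were in MYBL2 (2.46), CENPE (1.75) and SPC25 (1.55), and PTTG1 and CDC25C (0.12 ± 0.10) had none by test. MITF (0.97 ± 0.09) and SMARCA4 (0.83 ± 0.06) were also higher in shSCR2. What set the 2 scramble groups apart is not given in the labels. The 501Mel libraries also list different numbers of genes, 41467 in shSCR2 and shMITF and 42224 in shSCR1 and shBRG1. The shBRG1 libraries lay below every other 501Mel library in 40 of the 45 genes (20% of all genes), whichever scramble group is taken.

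Before any knockdown the lines differed as well. Against Hermes3A shSCR, 40 of the 45 genes were higher in 501Mel shSCR1 at an adjusted p under 0.05 (41.4% of the 18731 genes tested). With a log2 fold change above 1 as well there were 9, a smaller share than that of all genes (23.1%). The 9 were PLK1 (1.54), NCAPH (1.53), SMC4 (1.22), CDCA8 (1.18), TPX2 (1.17), NUF2 (1.15), CDC25C (1.13), CDC20 (1.12) and KIF23 (1.00). SPC25 (-0.60 ± 0.09) and FOXM1 (-0.64 ± 0.05) were lower, neither by a log2 fold change below -1 (18.2% of all genes), and had all 501Mel libraries below those of Hermes3A (40.7%), and MKI67 did not differ by test (-0.01 ± 0.05). The median was 0.67, against 0.04 over all genes. With shSCR2 as the 501Mel control the summed level was 296% of that in Hermes3A shSCR, and with shSCR1 159%. Both lines were grown in RPMI medium with serum, but Hermes3A alone had the added factors, whose part cannot be told apart from the line.

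Other genes of the same machinery, 97 in 6 lists, are set beside the members. At an adjusted p under 0.05, 72 of the 97 were lower with shBRG1 in 501Mel and 16 higher, where 39.1% and 41.2% of all genes tested were. With shMITF against shSCR2 59 were lower and 1 higher (10.5% and 10% of all genes), with shBRG1 in Hermes3A 66 and 8 (28.6% and 28.2%), and with shMITF in Hermes3A 29 and 0 (9.15% and 7.85%). The medians were -0.64, -0.54, -0.49 and -0.24. Among 30 other spindle and mitosis genes 26, 24, 26 and 17 were lower in these comparisons. The lowest was HMMR, a spindle protein, at -3.14 ± 0.06 with shBRG1 in 501Mel, -1.32 ± 0.08 in Hermes3A and -1.33 ± 0.17 with shMITF in Hermes3A, while BORA, an activator of AURKA, was higher with shBRG1 in 501Mel (0.85 ± 0.07). All 8 other mitotic kinesins were lower with shBRG1 in both lines, with KIF14 at -2.01 ± 0.06 in 501Mel and KIF4A at -1.25 ± 0.06 in Hermes3A.

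Of 16 other genes of the inner kinetochore and the MIS12 complex, 10, 8, 11 and 2 were lower in the 4 comparisons in the order above, and 5 were higher with shBRG1 in 501Mel, with CENPI at -1.54 ± 0.08 and CENPP at 0.69 ± 0.08 at the ends of the range for shBRG1 in 501Mel. Of 13 genes of the APC/C, its core subunits and the activator FZR1, 7, 3, 5 and 1 were lower, and 4 were higher with shBRG1 in 501Mel, where CDC27 was at -1.49 ± 0.05 and CDC26 at 1.28 ± 0.08. Of 13 cohesin and further condensin genes, 10, 10, 8 and 3 were lower, and the condensin subunit NCAPG2 was lowest in each (-1.73 to -0.63). Of 17 genes of DREAM, RB and E2F, 11, 8, 8 and 1 were lower. Against the shares of all genes given above, the counts with shMITF in Hermes3A for the inner kinetochore (2 of 16), the APC/C (1 of 13) and DREAM (1 of 17) lie near the background, and the 4 of 13 APC/C genes higher with shBRG1 in 501Mel are a smaller share than that of all genes. E2F8, a repressor of the E2F family, was at -2.15 ± 0.08 with shBRG1 in 501Mel and -1.70 ± 0.21 with shMITF against shSCR2, and it was the only pathway gene lower than shSCR1 with shMITF under both thresholds (-1.87 ± 0.17).

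**Figure D5:**
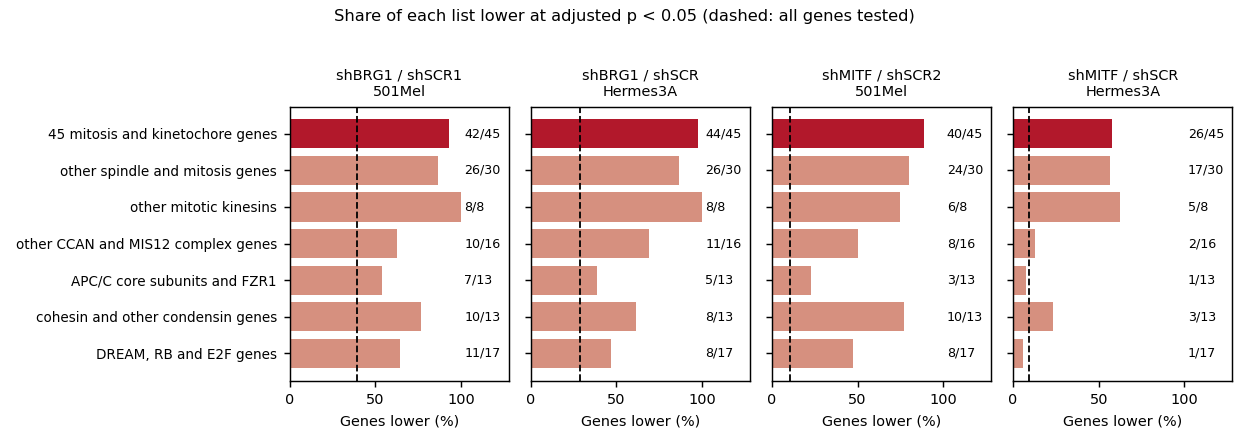
Share of genes lower at an edgeR adjusted p under 0.05, in percent (bars, with the count beside each), for the 45 genes and for 6 further lists of the machinery in the 4 knockdown comparisons; the dashed line is the share of all genes tested. The share of the 45 genes lies right of the dashed line in each panel, as do those of the kinesins and the other spindle genes, while with shMITF in Hermes3A the APC/C and DREAM lists lie left of it.

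Some features that were not used to choose the genes were set beside their fold changes. In 501Mel shBRG1 the longer members fell further: when split by exon length into 3 sets the medians were -1.09 (1286 to 3278 bases), -1.18 and -1.78 (5499 to 12807 bases), with 15 genes in each. Over all genes of the same length ranges the medians were 0.20, -0.02 and -0.19, so length moved with the fold change there too. Spearman's rho of length with fold change was -0.35 over the members and -0.23 over all genes, it was 0.09 and -0.03 in Hermes3A shBRG1, -0.29 and -0.04 with shMITF against shSCR2, and -0.24 and -0.11 with shMITF in Hermes3A. The 27 genes with a CHR in any promoter window and the 11 with a window but none had medians of -1.37 and -1.06 with shBRG1 in 501Mel, -0.84 and -0.92 with shMITF against shSCR2, -0.82 and -0.81 with shBRG1 in Hermes3A and -0.63 and -0.59 with shMITF in Hermes3A. Taken by window, where CDC25C, SMC2 and SMC4 count in both sets, the first pair was -1.38 (30 windows) and -1.39 (17).

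In 16 members exons overlap exons of a gene on the opposite strand in the GENCODE 29 annotation, most in NCAPG (33.1% of exon length, with LCORL), CENPO (31.4%), SMC4 (25.6%), FOXM1 (15.9%) and PLK1 (12.5%). In 3, BUB1B, CENPA and PRC1, they overlap a gene on the same strand, with 57.6% of exon length in PRC1. For 9 members pseudogenes of the same name are annotated, 4 of them for UBE2C. Reads of these genes could be split or lost, and their values carry that uncertainty.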

How the data were processed

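RNA was measured in 19 libraries of 2 human lines (total RNA depleted of ribosomal RNA, normalised with duplex-specific nuclease, sequenced on an Illumina instrument; strand is not stated). The deposited files hold raw read counts per Ensembl gene, with no normalisation. Per the submitters' processing notes the authors used CASAVA 1.8, TopHat 1.4.1, Bowtie 0.12.7 and the hg19 genome; the counting program and annotation release are not given in the sources used here. Nuclease normalisation lowers abundant cDNAs, so ratios between high and low genes are compressed.

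Counts were tested with edgeR 4.0.16 (R 4.3.3): filterByExpr, TMM scaling, robust quasi-likelihood fits within the libraries of each comparison, and Benjamini-Hochberg adjustment over all genes tested. A gene was called at an adjusted p under 0.05 and an absolute log2 fold change over 1, and interactions at an adjusted p under 0.05. Errors of fold changes are SE. CPM of single libraries come from 1 TMM scaling over all 19, which moves a fold change by at most 0.065 on the log2 scale. The biological coefficient of variation was 4.74%, 17.4%, 5.75% and 21.6% for 501Mel shBRG1, 501Mel shMITF, Hermes3A shBRG1 and Hermes3A shMITF. On simulated counts the 4 knockdown fits recovered 200 of 200 genes changed by 2 on the log2 scale, and the interaction of shMITF with the line recovered 179 of 200. Of the unchanged genes, 1, 8, 1 and 5 were called under both thresholds in the knockdown fits, in the order above, and 15 in that interaction. False calls of the knockdown fits at an adjusted p under 0.05 alone were not counted. All genes and groups of a comparison were simulated with the same biological coefficient of variation. A change of 2 is larger than the median fall of the members in any knockdown, so recovery at their size was not tested. No pair of libraries agreed within sampling noise (chi-square per degree of freedom at least 2.27).

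Alternatives were DESeq2 1.42.0, library-size scaling, other filters and thresholds, glmTreat, pooled or exchanged scramble groups, replicate blocks and leaving out each library. Exon lengths, overlaps and gene coordinates came from GENCODE 29 (GRCh38) by gene identifier, and promoters from RefSeq (GRCh38.p14); no coordinate comes from hg19. The members and lists were chosen with earlier results of these data known. All 45 members are accounted for. Values in every library are given for CCNB1, CDK1, PLK1, CDC20, BUB1, CENPO, CENPA, AURKB, TOP2A, MKI67, FOXM1 and MYBL2 and for the 3 lowest and 3 highest members of each knockdown comparison, and from other lists the lowest and highest gene may be named.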

Additional observations from a re-analysis of the deposited data

Results flagged for a closer look

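The effect of shBRG1 differed between 501Mel and Hermes3A by an interaction test (edgeR, adjusted p under 0.05) in most of the set. It was more negative in 501Mel in 31 genes (33.1% of the 21697 genes tested) and more positive in 6 (24.8%). Among the genes given by library, the difference in log2 fold change (501Mel minus Hermes3A) was -2.07 for CENPF, -1.85 for ECT2, -1.83 for MKI67, -1.10 for CCNB1, -1.06 for NUF2, -0.93 for BUB1, -0.92 for TOP2A, -0.76 for PLK1, -0.75 for BUB1B, -0.44 for CENPA, -0.37 for CDC25C and -0.18 for CDC20. It was 0.46 for CDK1, 0.49 for CENPO, 0.75 for MAD2L1 and 0.75 for MYBL2. Groups of 2 or 3 libraries were not searched for single outlying libraries.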

How the results depend on the processing

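Of the results for single genes in the 4 knockdown comparisons, most kept their direction and side of the adjusted p threshold of 0.05. For 501Mel shBRG1 207 of the values under alternatives did so, for 501Mel shMITF 169, for Hermes3A shBRG1 235 and for Hermes3A shMITF 191. In that order 8, 28, 18 and 25 lost the threshold and 4, 12, 0 and 5 gained it, and 27 values reversed. The fold threshold did not enter these counts. Dropping it reuses the main fit, so values under that alternative are the same by construction. Library-size scaling gave 21 lower members with shBRG1 in 501Mel, 6 with shMITF in 501Mel, 0 with shBRG1 and 2 with shMITF in Hermes3A, 12 higher in shSCR2 than in shSCR1 and 18 higher in 501Mel shSCR1 than in Hermes3A shSCR; the last but one was also 12 with at least 10 counts in every library. It turned SPC24 to 0.038 (Hermes3A shBRG1) and PTTG1 to 0.049 (Hermes3A shMITF). Without the fold threshold the counts were 40 (501Mel shMITF), 44 (Hermes3A shBRG1) and 26 (Hermes3A shMITF), and glmTreat, which tests against that threshold, called 0 in each of these 3. DESeq2 called 1 member in the interaction of shMITF with the line.

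The control decides the 501Mel shMITF results. With shSCR1 as the control the count of lower members was 0 and the median 0.073, and the values reversed to 0.73 for BIRC5, 0.026 for CASC5, 0.037 for CCNB1, 0.084 for CDK1, 0.0081 for CENPO, 0.87 for FOXM1, 0.28 for MKI67, 2.04 for MYBL2, 0.0037 for PLK1, 0.65 for SPC24 and 0.053 for TOP2A. With pooled scramble libraries the count was also 0, BIRC5 was 0.25, FOXM1 0.19, MYBL2 0.57 and SPC24 0.28, and with shBRG1 CENPO was -0.36, MAD2L1 -0.47 and MYBL2 -0.93. None of these pooled gene values passed (edgeR adjusted p 0.285 to 0.838), and the pool joins 2 groups that differed in most members. The median of the interaction of shMITF with the line became 0.79 with shSCR1 and 0.34 with pooled controls; these exchanges in the interactions were chosen after seeing the data. The cause of the difference between the scramble groups was not tested.

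Leaving out 1 library at a time gave 32 to 33 lower members with shBRG1 in 501Mel, 7 to 15 with shMITF in 501Mel, 3 to 11 with shBRG1 and 5 to 7 with shMITF in Hermes3A. Over these fits CENPO with shBRG1 in 501Mel ran from -0.026 to 0.027 (-0.0018 without shSCR1 replicate 2, and -0.011 with no filter), SPC24 in Hermes3A shBRG1 from -0.13 to 0.0043, PTTG1 in Hermes3A shMITF from -0.38 to 0.13 (0.092 without replicate 2), and SPC24 there from -0.089 to 0.36.

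Deviations of same-numbered libraries from their group means had correlations of -0.066 to 0.090 over the 3 comparisons with 3 pairs, and 0.10 for 501Mel shMITF. With 2 libraries in a group the deviations are mirror images, and with 3 they cancel. These correlations therefore cannot decide whether same-numbered libraries were paired. With the replicate block the counts of called members were 32, 11, 4 and 6 in the 4 knockdown comparisons, as without it. Every member had at least 75 counts in each library; the 2 libraries of each 501Mel shMITF group and the spread of the Hermes3A shMITF libraries limit those results.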
